A study of Mus musculus with 9 samples.

Results

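The genes of Wnt signalling were followed across 3 tissues of the E10.5 mouse embryo through 74 array probes for 54 gene symbols, out of 25697 probes and 18120 symbols on the array. Members were taken by symbol and not by level. They were the Wnt ligands (19 genes), the frizzled receptors with *Lrp5*, *Lrp6* and *Ror2* (11 genes), the secreted inhibitors of the Sfrp and Dkk families with *Wif1* (9 genes), the R-spondins (2 genes), the transduction and nuclear genes *Dvl1*, *Dvl2*, *Dvl3*, *Axin2*, *Ctnnb1*, *Lef1* and *Tcf7* (7 genes), and the planar polarity genes of the Vangl, Celsr and Prickle families (6 genes). *Vangl2*, *Axin1*, *Rspo1* and *Rspo4* were not analysed here. A gene with several probes is represented by the probe with the highest mean over the 9 arrays, and the other probes are given where they disagreed.

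Embryos of the outbred CD-1 strain, all of age E10.5 and with no treatment named, came from 3 litters and were dissected with forceps into the otic vesicle (OV), the epithelial sac that forms the inner ear; periotic tissue, which held mesenchyme together with hindbrain; and embryo-minus-otic tissue, the rest of the embryo without the greater otic region. Each tissue was collected as 3 pools, and RNA from each pool was hybridized to its own 1-colour MouseRef-8 v2.0 array. Levels below are log2 intensities after quantile normalization over the 9 arrays, differences are on the same log2 scale with the standard error (SE) of the linear model, and *q* is limma's p-value adjusted by Benjamini-Hochberg over all 25697 probes. A gene was called higher or lower at *q* under 0.05, and a probe counted as above background where its detection p was under 0.01 on that array.

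Wnt proteins are secreted ligands that bind frizzled receptors. With the co-receptors Lrp5 and Lrp6 they stabilize beta-catenin, the *Ctnnb1* product, which acts in the nucleus with Tcf and Lef factors, while other receptors such as Ror2 and the Vangl, Celsr and Prickle proteins serve the orientation of cells within a sheet. Sfrp, Dkk and Wif1 proteins act outside the cell and mostly limit the signal, and R-spondins enhance it. In the inner ear the dorsal hindbrain is a known source of Wnt ligands for the neighbouring vesicle, and polarity genes later orient the hair bundles.

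The dissection was checked against marker genes. All 9 otic epithelium markers were higher in OV than in both other tissues. Of 11 hindbrain and neural tube markers, 8 were lower in OV than in periotic tissue and 6 were higher in periotic tissue than in embryo-minus-otic tissue. Their mean level ran from 6.40 to 6.48 on the OV arrays, from 8.18 to 8.31 on the periotic arrays and from 7.21 to 7.34 on the embryo-minus-otic arrays. Of these markers, *Pax6*, *Sox1* and *Atoh1* were above background on no array and *Pax3* on 1. The mean of the 8 measured mesenchyme markers ran from 7.18 to 7.39 on the OV arrays, from 7.30 to 7.48 on the periotic arrays, which overlap them, and from 8.46 to 8.67 on the embryo-minus-otic arrays. All 6 erythroid markers were lower in OV than in both other tissues. Of 10 limb and posterior body markers, 6 were lower in OV and 6 in periotic tissue than in embryo-minus-otic tissue. Of 6 forebrain and midbrain markers, 1 was higher in OV than in both other tissues and 3 were lower in OV than in embryo-minus-otic tissue. Of 5 liver and endoderm markers, 1 was lower in OV than in periotic tissue and 3 than in embryo-minus-otic tissue, and 1 of 5 otic neuroblast markers was higher in OV in both comparisons. The mean of 4 heart muscle markers was 6.72 on OV replicate 1 against 5.85 to 5.89 on the other OV arrays. A difference between such dissected tissues can be a difference in the share of a cell type or in the RNA of each cell, and these cannot be told apart.

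The number of Wnt pathway probes above background was lowest on the OV arrays and highest on the embryo-minus-otic arrays. OV replicates 1, 2 and 3 had 35, 36 and 33 of the 74 probes above background, the periotic arrays had 40, 39 and 40, and the embryo-minus-otic arrays had 49, 44 and 45. The 3 groups did not overlap in this count, while over all probes they did, with 11283 to 12160 above background per array. As shares, the members ran from 44.6% to 48.6% on the OV arrays. They ran from 52.7% to 54.1% on the periotic and from 59.5% to 66.2% on the embryo-minus-otic arrays. The share of all probes was 43.9% to 47.3% per array. At a detection p under 0.05 the member counts did not overlap either (38 to 39, 42 to 46 and 50 to 51), and all probes were not counted at that threshold. In all, 45 probes for 37 genes were above background on every array of at least 1 tissue, 29 probes on all 9 arrays, and 22 probes on none. The genes above background on no array with any probe were 13 in number. They were the ligands *Wnt2b*, *Wnt8a*, *Wnt9a*, *Wnt9b* and *Wnt10b*, the receptor *Fzd4*, the inhibitors *Dkk1*, *Dkk2*, *Dkk4*, *Sfrp4* and *Sfrp5*, *Dvl3* and *Prickle2*.

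In OV against periotic tissue, 11 of the 74 probes (14.9%) were higher and 18 (24.3%) were lower, where 5.07% and 5.15% of all probes were called in these directions. In OV against embryo-minus-otic tissue, 6 (8.11%) were higher and 20 (27.0%) lower, against 5.89% and 5.51% of all probes. In periotic against embryo-minus-otic tissue, 15 (20.3%) were higher and 11 (14.9%) lower, against 2.86% and 2.95% of all probes. The median size of the differences was 0.229, 0.210 and 0.235 over the member probes in these 3 comparisons and 0.094, 0.101 and 0.090 over all probes. The split between directions moved with the scaling. Without normalization between arrays it was 5 higher and 13 lower in OV against periotic tissue, 2 and 17 in OV against embryo-minus-otic tissue, and 13 and 4 in periotic against embryo-minus-otic tissue, where median normalization also gave 13 and 4. Shares over all probes are not given for these scalings, so whether the members moved more than all probes was not tested. Probes of one gene are not independent of each other. Counted with 1 probe per gene, 10 of 54 genes were higher and 14 lower in OV than in periotic tissue, 5 were higher and 15 lower in OV than in embryo-minus-otic tissue, and 13 were higher and 8 lower in periotic than in embryo-minus-otic tissue. The shares over all probes were not taken with 1 probe per gene, so they are not matched to these gene counts. The comparisons share arrays, so their counts are not independent of one another.

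The calls are given here by class, with 1 probe per gene. Among 11 receptor genes, 7 were higher and 2 lower in OV than in periotic tissue, while among 19 ligands 2 were higher and 5 lower, among 9 secreted inhibitors none was higher and 3 were lower, and among 6 polarity genes none was higher and 3 were lower. Against embryo-minus-otic tissue the counts were 3 higher and 1 lower for receptors, 1 and 7 for ligands, 0 and 2 for inhibitors, and 0 and 3 for polarity genes. The zero counts of higher inhibitors and polarity genes in limma's test stayed at 0 at an unadjusted p under 0.05, after neqc and after median normalization. Only 3 of the 9 inhibitors were above background on every array of at least 1 tissue, and 5 were above it on no array. For the 6 polarity genes these numbers were 5 and 1. The zero counts therefore say little about the genes that were not measured above background. The 7 receptors higher in OV than in periotic tissue became 5 after neqc, 3 after median normalization and 1 without normalization between arrays. Whether the classes differ in their direction was not tested. *Fzd6*, *Fzd7*, *Ror2*, *Tcf7* and *Wnt6* were higher in OV than in both other tissues. *Wnt3a*, *Wnt4*, *Wnt7a*, *Fzd10*, *Sfrp2*, *Dkk3*, *Rspo3*, *Celsr3* and *Prickle1* were lower in OV than in both. Among these, *Fzd7*, *Wnt3a*, *Wnt4*, *Wnt7a*, *Fzd10*, *Sfrp2* and *Prickle1* kept both calls under each of the 17 alternative analyses, and *Fzd6*, *Ror2*, *Tcf7*, *Wnt6*, *Dkk3*, *Rspo3* and *Celsr3* lost at least 1 call under at least 1 of them.

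**Figure D1:**
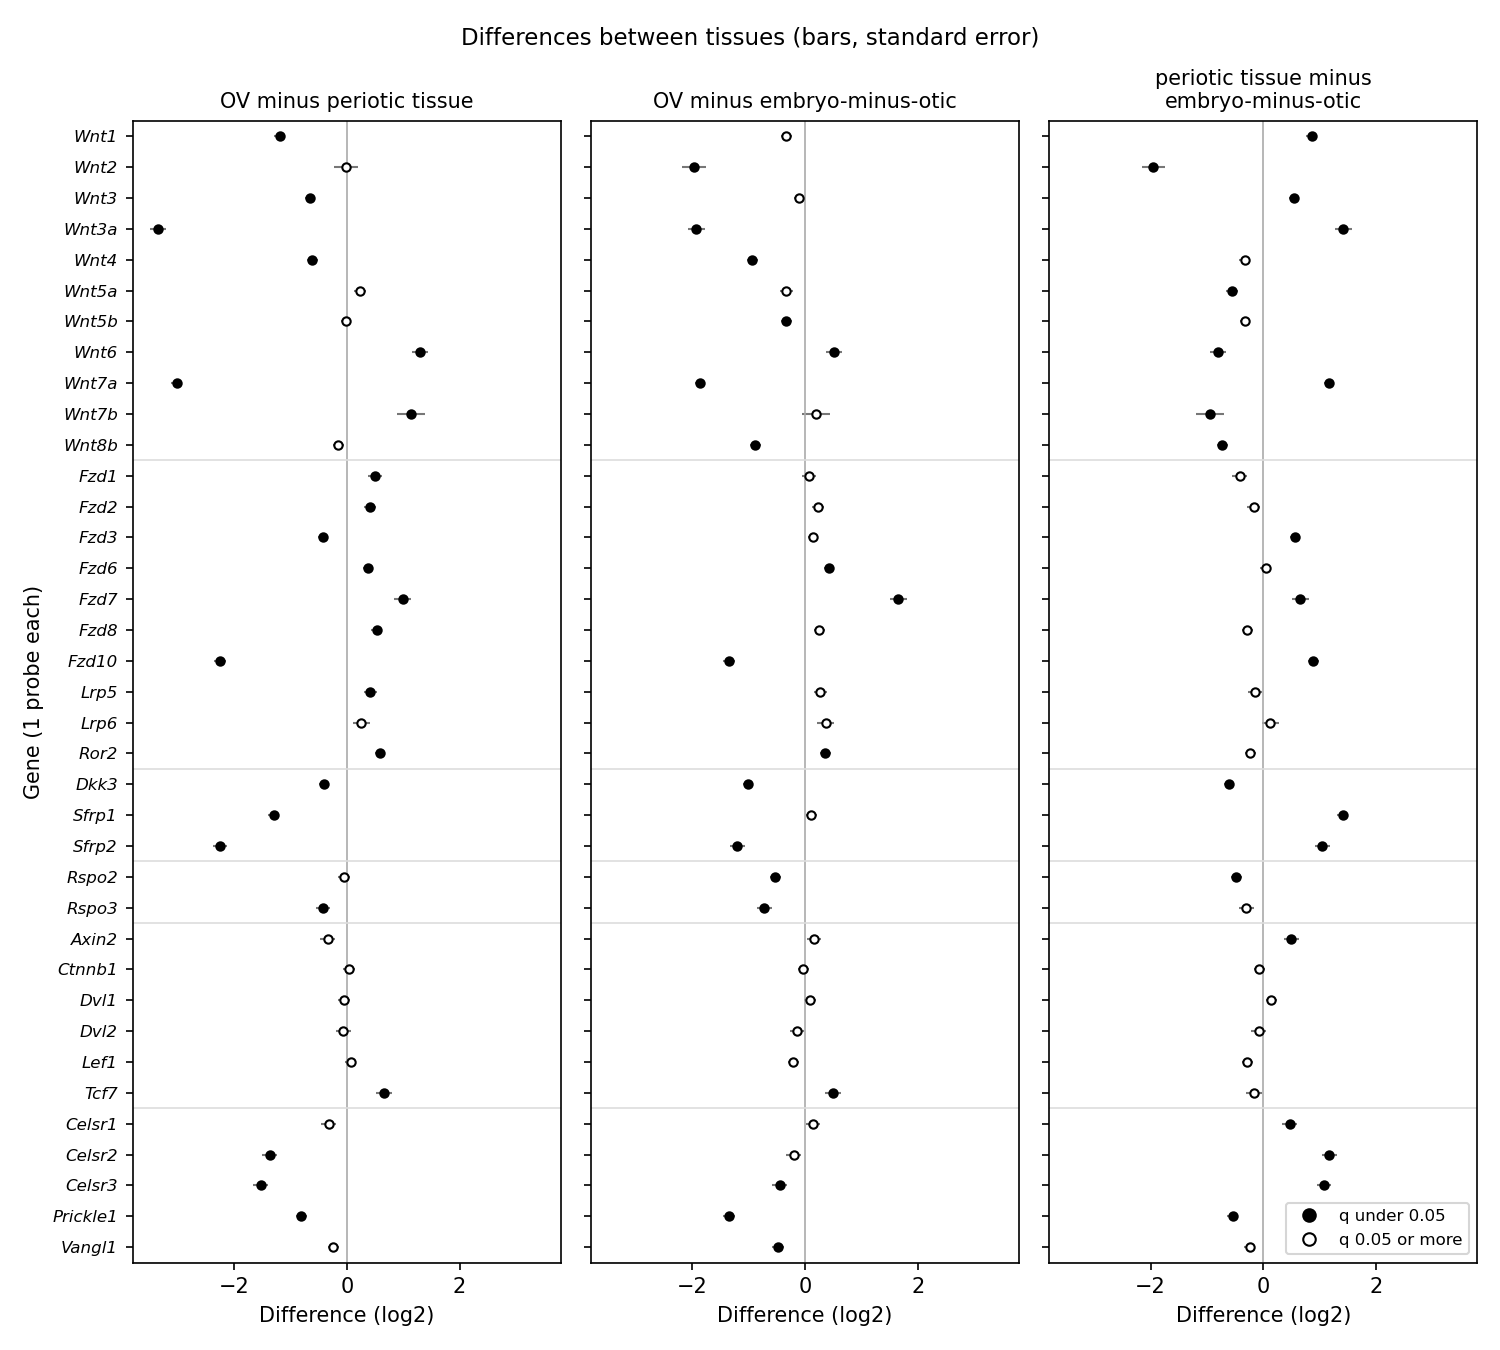
Log2 difference (horizontal axis) of the 37 genes above background on every array of at least 1 tissue, 1 probe each, in the 3 comparisons; bars are the standard error and filled points have *q* under 0.05. The upper blocks are ligands and receptors and the lower blocks are inhibitors, R-spondins, transduction and nuclear genes and polarity genes; *Wnt3a* at -3.35 and *Wnt7a* at -3.02 lie farthest to the left in OV minus periotic tissue, and *Fzd7* at 1.65 farthest to the right in OV minus embryo-minus-otic tissue.

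The ligands fell into 3 patterns by tissue, of which the first was high in periotic tissue and low or undetected in OV. *Wnt3a*, a ligand of the roof of the neural tube, had levels of 6.62, 6.89 and 6.13 in OV, with the third array not above background, 9.93, 9.85 and 9.91 in periotic tissue, and 8.63, 8.32 and 8.50 in embryo-minus-otic tissue. The 3 tissues did not overlap. It was lower in OV than in periotic tissue by a fold Δ of 10.2 (difference -3.35, SE 0.15, *q* = 3.05e-10) and lower than in embryo-minus-otic tissue by a fold Δ of 3.82 (difference -1.93, *q* = 1.82e-07). Periotic tissue was above embryo-minus-otic tissue by a fold Δ of 2.67 (difference 1.42, *q* = 1.37e-05).

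*Wnt7a*, a ligand known from neural tube, limb ectoderm and Müllerian duct, was above background on none of the OV arrays, at 5.87, 5.97 and 5.98. It stood at 8.86, 9.13 and 8.92 in periotic tissue and at 7.81, 7.86 and 7.74 in embryo-minus-otic tissue. All periotic arrays lay above all embryo-minus-otic arrays, and these above all OV arrays. The level was at least 6.81-fold lower in OV than in periotic tissue (difference -3.02, SE 0.092, *q* = 1.11e-11) and at least 3.03-fold lower than in embryo-minus-otic tissue (difference -1.86, *q* = 1.88e-09). A bound is given, here and below, wherever a group had no array above background; it compares the mean of the brighter group with the lowest level measured above background on each array of the dim group, or with the probe's own value where that is higher.

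*Wnt1*, which marks the dorsal midline of the hindbrain and midbrain, was at 5.75, 5.79 and 5.94 in OV, none above background, at 7.09, 6.93 and 7.03 in periotic tissue, and at 6.37, 6.01 and 6.08 in embryo-minus-otic tissue, where 1 array was above background. Only the periotic arrays were all above background, and they overlapped neither other tissue. *Wnt1* was at least 1.76-fold lower in OV than in periotic tissue (difference -1.19, *q* = 6.89e-07), and its difference from embryo-minus-otic tissue missed the threshold at -0.33 (*q* = 0.0549), which it passed without embryo-minus-otic replicate 2 (-0.39, *q* = 0.0342). *Wnt3* was above background only on the periotic arrays, at 6.44, 6.66 and 6.67. It was at least 1.31-fold higher there than in OV (OV minus periotic difference -0.65, *q* = 9.1e-05) and at least 1.30-fold higher than in embryo-minus-otic tissue (difference 0.54, *q* = 0.00114), the latter call lost without normalization between arrays (*q* = 0.357). The hindbrain and neural tube markers have the same order of mean levels as *Wnt3a* and *Wnt7a*, with periotic tissue highest and OV lowest, and their part in these differences was not tested.

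Other ligands were highest in embryo-minus-otic tissue. *Wnt2*, expressed in heart and lung mesoderm, was above background only there, at 7.35, 8.46 and 7.37. Replicate 2 stood above the other 2 arrays of its tissue. *Wnt2* was at least 2.88-fold lower in OV (difference -1.97, SE 0.21, *q* = 6.65e-06) and at least 2.92-fold lower in periotic tissue (periotic minus embryo-minus-otic difference -1.95, *q* = 1.78e-05). Without embryo-minus-otic replicate 2 the differences were -1.58 (*q* = 1.59e-08) and -1.56 (*q* = 3.3e-08). The 4 heart muscle markers were also lower in OV and periotic tissue than in embryo-minus-otic tissue, and their part in the *Wnt2* difference was not tested. *Wnt8b*, known from the forebrain, was likewise above background only in embryo-minus-otic tissue, at 6.74, 6.41 and 6.56, at least 1.29-fold above OV (OV minus embryo-minus-otic difference -0.88, *q* = 1.18e-05).

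*Wnt4*, which acts in kidney and gonad, was above background on no OV array, at 5.97, 6.06 and 5.97, and on all arrays of periotic tissue, at 6.64, 6.56 and 6.62, and of embryo-minus-otic tissue, at 7.05, 7.03 and 6.73. The OV arrays lay below all others. It was at least 1.32-fold lower in OV than in periotic tissue (difference -0.61, *q* = 0.000411) and at least 1.67-fold lower than in embryo-minus-otic tissue (difference -0.94, *q* = 4.83e-06), and its second probe was called in the same directions. *Wnt5a* and *Wnt5b*, ligands that mostly act without beta-catenin, were above background on all 9 arrays. *Wnt5a* was at 8.34, 8.35 and 7.92 in OV, at 8.05, 8.03 and 7.85 in periotic tissue and at 8.47, 8.50 and 8.63 in embryo-minus-otic tissue. OV and periotic tissue overlapped, and the *Wnt5a* difference of 0.23 between them missed the threshold (*q* = 0.312) but passed it without OV replicate 3 (0.37, *q* = 0.0389), while periotic tissue was lower than embryo-minus-otic tissue on both probes (difference -0.56, *q* = 0.0069, for the first). The *Wnt5a* call of the first probe was lost after median normalization (-0.34, *q* = 0.369) and without normalization (*q* = 0.28). *Wnt5b* in OV, at 6.75, 6.72 and 6.65, was lower than in embryo-minus-otic tissue, at 7.15, 7.10 and 6.88 (difference -0.33, *q* = 0.0241), a *Wnt5b* call lost in 7 of 17 alternative analyses, among them those without any 1 OV array or embryo-minus-otic replicate 1 or 2, with *q* from 0.0513 to 0.0961.

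Of the 19 ligands, *Wnt6* and *Wnt7b* were called higher in OV than in periotic tissue. *Wnt6*, a ligand of surface and other ectoderm, was at 7.83, 8.35 and 8.41 in OV, at 7.07, 6.80 and 6.81 in periotic tissue, and at 7.56, 7.78 and 7.73 in embryo-minus-otic tissue. All OV arrays lay above the other tissues, replicate 1 by the least. The fold Δ was 2.47 against periotic tissue (difference 1.30, SE 0.14, *q* = 5.44e-06) and 1.42 against embryo-minus-otic tissue (difference 0.51, *q* = 0.0233). The second of these calls was lost in 6 of 17 alternative analyses, among them those without OV replicate 2 (0.43, *q* = 0.114), OV replicate 3 (0.40, *q* = 0.124) or embryo-minus-otic replicate 1 (0.45, *q* = 0.0855) or 3 (0.53, *q* = 0.0503).

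*Wnt7b* was at 8.15, 8.90 and 8.41 in OV, at 6.83, 8.12 and 7.08 in periotic tissue, and at 8.30, 8.45 and 8.11 in embryo-minus-otic tissue. Periotic replicate 2 stood apart from the other periotic arrays, just below the lowest OV array. The fold Δ of OV over periotic tissue was 2.21 (difference 1.14, SE 0.25, *q* = 0.00643), and OV did not pass against embryo-minus-otic tissue (difference 0.20, *q* = 0.752). The dimmer second probe of *Wnt7b* differed by 0.42 between OV and periotic tissue and was not called (*q* = 0.0594). The call of the first probe was lost after median normalization (1.12, *q* = 0.0633). With each array left out its difference ran from 0.89 without periotic replicate 1 (*q* = 0.0483) to 1.53 without periotic replicate 2 (*q* = 3.09e-05), and it was 0.93 without OV replicate 2 (*q* = 0.0485).

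The dimmest ligands gave little. *Wnt10a* was above background on 2 embryo-minus-otic arrays and no others, and was lower in OV than in that tissue (difference -0.36, *q* = 0.0092, at least 1.02-fold), a call lost without normalization between arrays (*q* = 0.172). *Wnt16* was above background on at most 2 arrays with any of its 3 probes, and 1 probe was lower in OV than in embryo-minus-otic tissue (difference -0.57, *q* = 0.000869). *Wnt11*, a polarity ligand, was above background on 1 periotic array.

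**Figure D2:**
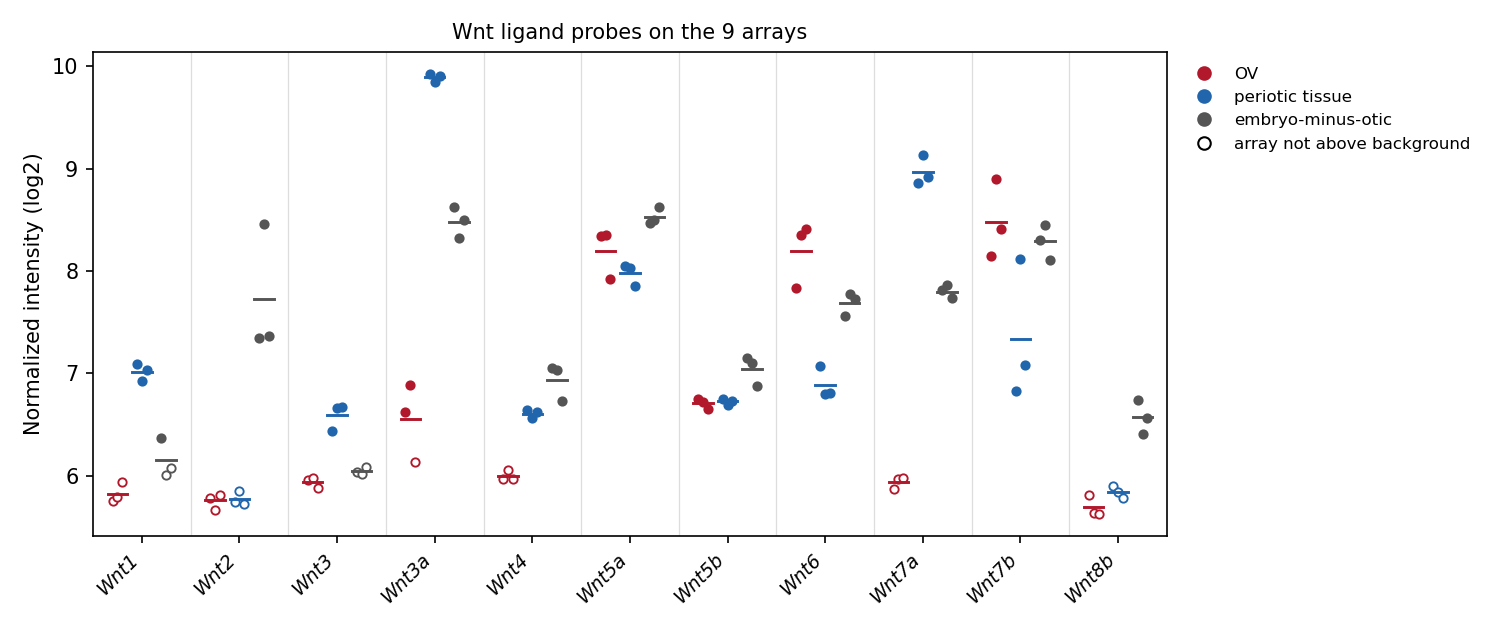
Normalized log2 intensity (vertical axis) of the 11 Wnt ligand genes above background on every array of at least 1 tissue, with 1 point per array, a bar for the mean of the 3 arrays of a tissue, and open points for arrays not above background. *Wnt7a* and *Wnt1* are open in OV and filled in periotic tissue, *Wnt2* and *Wnt8b* are filled only in embryo-minus-otic tissue, and *Wnt6* is highest in OV, from 7.83 to 8.41.

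Several Wnt genes lie beside one another in the genome, and the neighbours are set side by side here. In the gene table of mouse assembly GRCm38.p6, *Wnt3a* and *Wnt9a* are adjacent on chromosome 11, as are *Wnt9b* and *Wnt3*, and *Wnt10b* and *Wnt1* are adjacent on chromosome 15. *Wnt3a*, *Wnt3* and *Wnt1* were above background in periotic tissue, while *Wnt9a*, *Wnt9b* and *Wnt10b* were above background on none of the 9 arrays. The tissue patterns of *Wnt9a*, *Wnt9b* and *Wnt10b* were thus not measured and cannot be compared with those of their neighbours. *Wnt6* and *Wnt10a* on chromosome 1 are separated only by 2 long non-coding RNA genes, and of this pair *Wnt6* was above background on every OV array, whereas *Wnt10a* was so on none of them.

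Promoters are printed for 2 ligands that were lower in OV than in both other tissues, *Wnt3a* and *Wnt7a*, and for a ligand and a receptor that were higher, *Wnt6* and *Fzd7*, so that genes of both directions can be set side by side. Each line gives the 250 bases before the RefSeq start site (GRCm38.p6), 5′ to 3′ on the strand of the gene, with capitals marking the GC box GGGCGG or its reverse complement CCGCCC and the TCF/LEF core CTTTGA or its reverse complement TCAAAG. *Dkk1*, a target of beta-catenin in many tissues, is shown for its TCF/LEF letters.
Wnt3a, chr11:59290752-59291001, minus strand: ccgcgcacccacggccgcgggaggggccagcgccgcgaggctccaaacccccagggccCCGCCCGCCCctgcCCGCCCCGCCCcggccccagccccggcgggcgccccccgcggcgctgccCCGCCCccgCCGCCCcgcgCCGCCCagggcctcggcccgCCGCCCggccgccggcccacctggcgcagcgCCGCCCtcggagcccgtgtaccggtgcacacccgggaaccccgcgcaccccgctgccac
Wnt7a, chr6:91411354-91411603, minus strand: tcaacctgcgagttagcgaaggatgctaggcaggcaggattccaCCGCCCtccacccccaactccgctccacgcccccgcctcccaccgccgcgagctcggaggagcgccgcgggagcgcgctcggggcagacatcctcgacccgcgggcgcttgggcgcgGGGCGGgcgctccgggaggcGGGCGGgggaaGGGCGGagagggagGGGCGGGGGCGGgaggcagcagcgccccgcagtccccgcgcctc
Wnt6, chr1:74771642-74771891, plus strand: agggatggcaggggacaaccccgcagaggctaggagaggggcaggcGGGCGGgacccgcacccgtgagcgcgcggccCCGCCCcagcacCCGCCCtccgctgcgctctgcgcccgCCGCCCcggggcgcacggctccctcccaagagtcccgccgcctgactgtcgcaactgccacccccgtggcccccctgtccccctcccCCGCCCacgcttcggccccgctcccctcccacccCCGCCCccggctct
Fzd7, chr1:59481897-59482146, plus strand: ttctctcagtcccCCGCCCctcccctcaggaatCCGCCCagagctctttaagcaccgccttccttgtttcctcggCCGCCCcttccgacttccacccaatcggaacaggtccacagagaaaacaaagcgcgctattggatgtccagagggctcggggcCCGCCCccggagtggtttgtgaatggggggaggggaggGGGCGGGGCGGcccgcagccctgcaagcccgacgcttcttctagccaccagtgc
Dkk1, chr19:30549497-30549746, minus strand: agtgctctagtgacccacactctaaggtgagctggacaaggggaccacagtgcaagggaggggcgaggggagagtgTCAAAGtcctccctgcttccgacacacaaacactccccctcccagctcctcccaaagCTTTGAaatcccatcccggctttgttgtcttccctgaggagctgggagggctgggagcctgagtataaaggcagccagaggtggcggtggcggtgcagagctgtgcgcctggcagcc
The windows of *Wnt3a*, *Wnt7a*, *Wnt6* and *Fzd7* hold 9, 6, 6 and 6 GC boxes, overlapping matches counted, with a GC content of 87.6%, 77.6%, 79.6% and 65.2%, and no TCF/LEF core. The *Dkk1* window holds 2 TCF/LEF cores and no GC box. GC boxes were thus present in the windows of genes of both directions. Of the 54 genes, 36 had windows, 48 in all. A GC box was in 37 of these windows (77.1%) and in 32.7% of all 32851 promoter windows of the same length, and a TCF/LEF core was in 6 (12.5%) and in 13.8% of all. The 6 windows belonged to *Lef1*, *Fzd1*, *Prickle2*, *Wnt5b*, *Wnt11* and *Dkk1*. No other form of the TCF/LEF core than CTTTGA and its reverse complement was searched. A match to these letters is a description of the window and not a binding site.

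Most receptors called in OV against periotic tissue were higher in OV. *Fzd7*, a widely expressed frizzled receptor, was at 11.14, 10.77 and 11.22 in OV, at 9.98, 10.01 and 10.19 in periotic tissue and at 9.60, 9.0 and 9.59 in embryo-minus-otic tissue. The 3 tissues did not overlap. The fold Δ of OV was 1.98 over periotic tissue (difference 0.99, SE 0.15, *q* = 0.000293) and 3.14 over embryo-minus-otic tissue (difference 1.65, *q* = 1.48e-06). *Ror2*, a tyrosine kinase receptor for Wnt5a, was at 8.16, 8.28 and 8.41 in OV, at 7.78, 7.56 and 7.73 in periotic tissue and at 7.96, 7.88 and 7.93 in embryo-minus-otic tissue. Its OV arrays were the 3 highest, with differences of 0.59 from periotic tissue (*q* = 0.000334) and 0.36 from embryo-minus-otic tissue (*q* = 0.018). Both *Ror2* calls were lost without normalization between arrays (*q* = 0.0744 and 0.394). The call against embryo-minus-otic tissue was lost in 5 of 17 alternative analyses. Among them were those without OV replicate 2 (*q* = 0.055), OV replicate 3 (*q* = 0.0964) or embryo-minus-otic replicate 2 (*q* = 0.0582).

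*Fzd8* was above background on the OV arrays, at 6.64, 6.47 and 6.75, and on no periotic array, at least 1.35-fold higher in OV (difference 0.53, *q* = 0.00191). This *Fzd8* call was lost without normalization between arrays (*q* = 0.0986). *Fzd6*, a receptor with a role in polarity, differed by 0.38 from periotic tissue (*q* = 0.0133) and 0.42 from embryo-minus-otic tissue (*q* = 0.00589), the former lost without OV replicate 3 (*q* = 0.0516) or periotic replicate 1 (*q* = 0.0805) or 3 (*q* = 0.0563). Both *Fzd6* calls were lost without normalization between arrays (*q* = 0.577 and 0.661). *Lrp5*, a co-receptor, was at 6.55, 6.49 and 6.93 in OV, at 6.16, 6.22 and 6.34 in periotic tissue and at 6.37, 6.54 and 6.26 in embryo-minus-otic tissue. Its OV arrays lay above the periotic arrays and overlapped the embryo-minus-otic arrays. *Fzd1*, *Fzd2* and *Lrp5* were each called higher in OV than in periotic tissue by 0.41 to 0.50, with *q* of 0.0192, 0.0237 and 0.0309, and none was called against embryo-minus-otic tissue. These small differences depended on single arrays. Without periotic replicate 2 the *Fzd1* difference was 0.34 (*q* = 0.103), without OV replicate 3 the *Lrp5* difference was 0.28 (*q* = 0.164), and without periotic replicate 3 the *Fzd2* difference was 0.29 (*q* = 0.122). *Lrp6*, the other co-receptor, was at 7.28, 7.61 and 7.78 in OV and overlapped both periotic tissue, at 7.12, 7.16 and 7.62, and embryo-minus-otic tissue, at 6.98, 7.30 and 7.27. Its differences of 0.26 and 0.37 were not called (*q* = 0.392 and 0.133), though the latter passed without OV replicate 1 (0.51, *q* = 0.0462).

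The exceptions among receptors were *Fzd10* and *Fzd3*. *Fzd10*, which marks dorsal neural tube, was at 7.84, 7.93 and 7.77 in OV, at 10.05, 10.24 and 10.01 in periotic tissue and at 9.24, 9.34 and 9.04 in embryo-minus-otic tissue. The tissues did not overlap and had the same order as for *Wnt3a* and *Wnt7a*. The fold Δ was 4.75 lower in OV than in periotic tissue (difference -2.25, SE 0.1, *q* = 3.36e-10) and 2.56 lower than in embryo-minus-otic tissue (difference -1.35, *q* = 1.22e-07), and all 3 *Fzd10* probes were called in the same directions. *Fzd3*, which guides axons and cell polarity, was at 7.77, 7.80 and 7.69 in OV, at 8.20, 8.24 and 8.11 in periotic tissue and at 7.57, 7.75 and 7.51 in embryo-minus-otic tissue. Periotic tissue lay above both others (OV minus periotic difference -0.43, *q* = 0.00429, and periotic minus embryo-minus-otic difference 0.57, *q* = 0.000718), the former call lost after median normalization (*q* = 0.0796) and without normalization (*q* = 0.135). As for the ligands, the hindbrain markers were highest in periotic tissue, and their part in these differences was not tested.

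**Figure D3:**
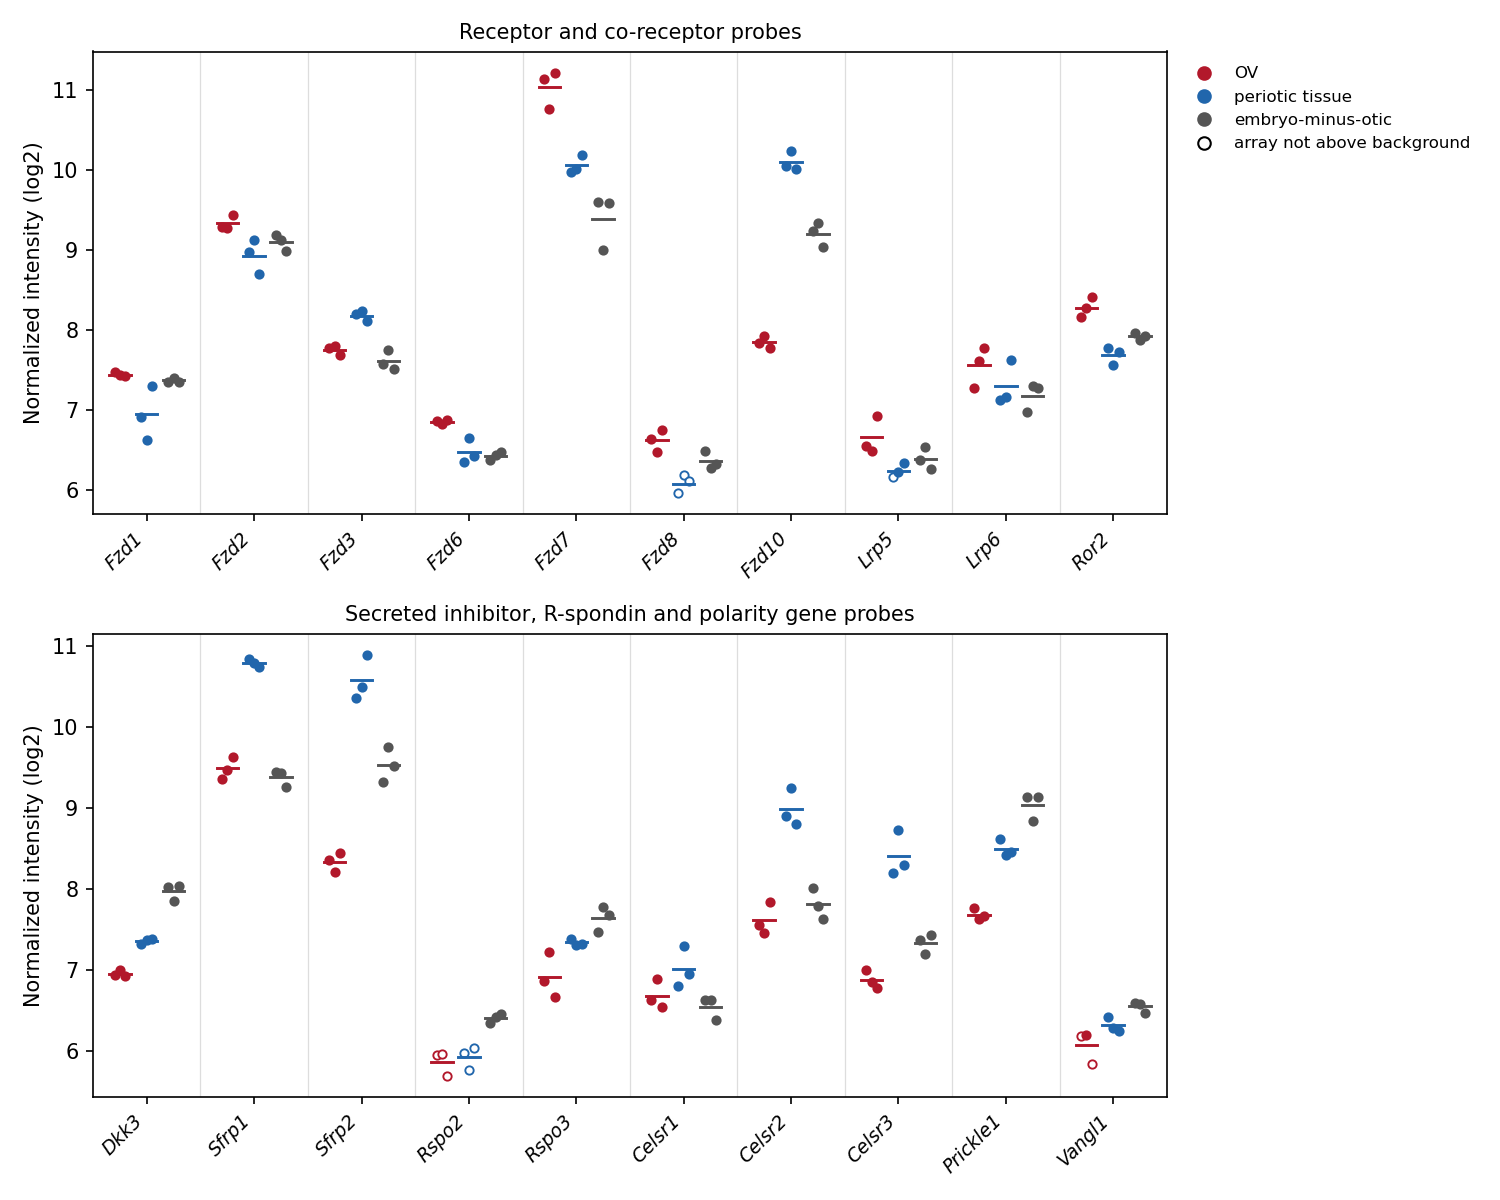
Normalized log2 intensity (vertical axis) per array of 10 receptor and co-receptor genes (upper panel) and of 10 secreted inhibitor, R-spondin and polarity genes (lower panel), with bars for the mean of 3 arrays and open points for arrays not above background. *Fzd7* is highest in OV, from 10.77 to 11.22, while *Fzd10*, *Sfrp1*, *Sfrp2*, *Celsr2* and *Celsr3* are highest in periotic tissue.

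Of the 9 secreted inhibitors, *Sfrp1*, *Sfrp2* and *Dkk3* were above background on all 9 arrays, and *Wif1* on 1 periotic and 2 embryo-minus-otic arrays. *Sfrp2*, a decoy that binds Wnt ligands, was at 8.35, 8.21 and 8.44 in OV, 10.36 and 10.89 on the lowest and highest periotic arrays and 9.32, 9.75 and 9.52 in embryo-minus-otic tissue. The tissues did not overlap. Its fold Δ was 4.77 lower in OV than in periotic tissue (difference -2.25, SE 0.13, *q* = 8.95e-09) and 2.30 lower than in embryo-minus-otic tissue (difference -1.20, *q* = 1.12e-05). *Sfrp1*, a decoy of the same family, was at 9.36, 9.47 and 9.63 in OV, at 10.84, 10.79 and 10.74 in periotic tissue and at 9.44, 9.43 and 9.26 in embryo-minus-otic tissue. Periotic tissue stood apart, with a fold Δ of 2.47 over OV (OV minus periotic difference -1.30, *q* = 8.24e-08) and 2.66 over embryo-minus-otic tissue (difference 1.41, *q* = 9.09e-08), while OV and embryo-minus-otic tissue overlapped (difference 0.11, *q* = 0.602). Both Sfrp genes thus shared their highest level with the hindbrain and neural tube markers, whose part in the differences was not tested.

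*Dkk3*, a divergent member of the Dkk family whose link to Wnt signalling is less settled, had another order. It was at 6.93, 7.00 and 6.92 in OV, at 7.32, 7.37 and 7.38 in periotic tissue and at 8.02, 7.85 and 8.04 in embryo-minus-otic tissue, without overlap. The OV level was lower than in periotic tissue (difference -0.41, *q* = 0.00407, lost without normalization between arrays at *q* = 0.186) and by a fold Δ of 2.03 than in embryo-minus-otic tissue (difference -1.02, *q* = 4.56e-07). A second *Dkk3* probe was called alike and the third was above background on no array. *Dkk1* was not above background on any array, with values from 5.67 to 6.08.

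Neither R-spondin was called higher in OV, nor at an unadjusted p under 0.05 in limma's test. *Rspo3*, an enhancer that acts through Lgr receptors, was at 6.86, 7.22 and 6.66 in OV, at 7.38, 7.31 and 7.32 in periotic tissue and at 7.47, 7.77 and 7.67 in embryo-minus-otic tissue. The OV arrays were the 3 lowest, with a fold Δ of 1.65 lower than embryo-minus-otic tissue (difference -0.72, *q* = 0.00087), a call lost after median normalization (-0.61, *q* = 0.0803). Against periotic tissue the difference of -0.42 was just called (*q* = 0.0427) and was lost in 9 of 17 alternative analyses, among them those without OV replicate 1 or 3 or any 1 periotic array, where *q* ran up to 0.225 without OV replicate 3 (difference -0.30). *Rspo2*, an enhancer needed in limb and lung, was above background only in embryo-minus-otic tissue, at 6.34, 6.41 and 6.45, at least 1.15-fold above OV (OV minus embryo-minus-otic difference -0.53, *q* = 0.00183).

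Of the 7 transduction and nuclear genes, 6 were not called in either OV comparison. *Ctnnb1*, encoding beta-catenin, was at 12.55, 12.55 and 12.72 in OV, at 12.66, 12.40 and 12.64 in periotic tissue and at 12.58, 12.55 and 12.77 in embryo-minus-otic tissue. The tissues overlapped fully, and the OV differences of 0.04 and -0.03 (SE 0.1) were not called. *Dvl1*, the relay below the frizzled receptors, was above background on all arrays and differed by at most 0.14 in size between tissues, none called. *Dvl2* and *Lef1* were close to background, passing it on all 3 arrays only in embryo-minus-otic tissue, and were not called. *Lef1*, a nuclear partner of beta-catenin, was at 6.17, 6.26 and 6.21 in OV, at 6.13, 6.07 and 6.24 in periotic tissue and at 6.38, 6.66 and 6.25 in embryo-minus-otic tissue. The tissues overlapped, with OV differences of 0.07 (*q* = 0.838) and -0.21 (*q* = 0.258).

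*Axin2*, an inhibitor in the cytoplasm that is itself a widely used readout of beta-catenin activity, was at 9.10, 9.16 and 9.27 in OV, at 9.41, 9.81 and 9.35 in periotic tissue and at 9.18, 9.09 and 8.79 in embryo-minus-otic tissue. The OV arrays lay below the periotic arrays and overlapped the embryo-minus-otic arrays. Neither OV difference was called, at -0.34 from periotic tissue (SE 0.13, *q* = 0.119) and 0.16 from embryo-minus-otic tissue (*q* = 0.552). Periotic tissue was above embryo-minus-otic tissue by a fold Δ of 1.42 (difference 0.50, *q* = 0.0258), a call lost without periotic replicate 2 (difference 0.36, *q* = 0.141) and without embryo-minus-otic replicate 3 (difference 0.39, *q* = 0.115).

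*Tcf7*, a transcription factor that binds beta-catenin, was the only one of the 7 transduction and nuclear genes called in an OV comparison. It was at 7.48, 7.11 and 7.60 in OV, at 6.83, 6.61 and 6.78 in periotic tissue and at 7.13, 6.57 and 6.99 in embryo-minus-otic tissue. The OV arrays lay above the periotic arrays, with a fold Δ of 1.58 (difference 0.66, SE 0.14, *q* = 0.00608), and OV replicate 2 lay just below the highest embryo-minus-otic array. The difference of 0.50 from embryo-minus-otic tissue (*q* = 0.0359) was lost in 9 of 17 alternative analyses, among them those without OV replicate 1 (0.45, *q* = 0.121), OV replicate 3 (0.40, *q* = 0.169) or embryo-minus-otic replicate 2 (0.33, *q* = 0.156), while the second *Tcf7* probe differed by 0.66 in both comparisons (*q* = 0.00488 and 0.00496).

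No gene of the Vangl, Celsr and Prickle families was called higher in OV. The receptors *Fzd6* and *Ror2*, which also have a role in polarity, are counted with the receptors and were higher in OV than in both other tissues. *Celsr2*, an atypical cadherin of the polarity complex, was at 7.55, 7.45 and 7.83 in OV, at 8.90, 9.24 and 8.80 in periotic tissue and at 8.01, 7.79 and 7.63 in embryo-minus-otic tissue. Periotic tissue stood above both others, with a fold Δ of 2.58 over OV (OV minus periotic difference -1.37, *q* = 2.17e-06) and 2.24 over embryo-minus-otic tissue (difference 1.17, *q* = 3e-05). *Celsr3*, its paralog with a role in axon tracts, was at 7.00, 6.85 and 6.77 in OV, at 8.20, 8.73 and 8.29 in periotic tissue and at 7.37, 7.19 and 7.43 in embryo-minus-otic tissue. The fold Δ of periotic tissue over OV was 2.89 (OV minus periotic difference -1.53, *q* = 3.57e-07), and OV was also below embryo-minus-otic tissue (difference -0.45, *q* = 0.0268). This last call was lost in 6 of 17 alternative analyses, among them those without OV replicate 2 or 3 or embryo-minus-otic replicate 1 or 3, with *q* from 0.0701 to 0.115. A second probe of each of *Celsr2* and *Celsr3* was above background on no array. *Celsr1*, the paralog known for hair follicle and neural tube polarity, was at 6.63, 6.88 and 6.54 in OV and overlapped both other tissues, and periotic tissue was above embryo-minus-otic tissue by 0.47 (*q* = 0.0438). This *Celsr1* call was lost in 10 of 17 alternative analyses, among them those without OV replicate 1, periotic replicate 2 or 3 or any 1 embryo-minus-otic array, with *q* from 0.0568 to 0.222. The hindbrain and neural tube markers were likewise highest in periotic tissue, and their part in the Celsr differences was not tested.

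*Prickle1*, a cytoplasmic polarity protein, was at 7.76, 7.62 and 7.66 in OV, at 8.61, 8.42 and 8.45 in periotic tissue and at 9.13, 8.84 and 9.13 in embryo-minus-otic tissue, without overlap. The fold Δ was 1.75 lower in OV than in periotic tissue (difference -0.81, *q* = 3.24e-05) and 2.55 lower than in embryo-minus-otic tissue (difference -1.35, *q* = 1.22e-07). Periotic tissue was below embryo-minus-otic tissue (difference -0.54, *q* = 0.00295), a *Prickle1* call lost after median normalization (-0.30, *q* = 0.199) and without normalization (*q* = 0.413). *Vangl1*, a membrane protein of the polarity complex, was above background on 1 OV array and on all arrays of both other tissues, and was lower in OV than in embryo-minus-otic tissue (difference -0.48, *q* = 0.00576). The mesenchyme markers, all 8 lower in OV than in embryo-minus-otic tissue, share with *Prickle1*, *Dkk3* and *Rspo3* their highest mean in embryo-minus-otic tissue, and their part in these differences was not tested.

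Of 71 further pathway genes, 64 were on the array and 45 were above background on all arrays of a tissue. Against periotic tissue 13 were higher and 6 lower in OV, against embryo-minus-otic tissue 10 were higher and 7 lower, and 4 were higher and 7 lower in periotic than in embryo-minus-otic tissue. Over all probes the called shares, higher and lower, were 5.07% and 5.15%, 5.89% and 5.51%, and 2.86% and 2.95% in these comparisons. Those shares cover every probe, including many not above background, while each further gene is counted by its brightest probe, so the 2 are not matched. *Sp5*, a transcription factor and beta-catenin target in many tissues, was at 10.25, 10.04 and 10.47 in OV, at 8.02, 7.23 and 7.89 in periotic tissue and at 8.99, 8.96 and 8.88 in embryo-minus-otic tissue. The tissues did not overlap, with a fold Δ of OV of 5.82 over periotic tissue (difference 2.54, SE 0.16, *q* = 2.08e-08) and 2.48 over embryo-minus-otic tissue (difference 1.31, *q* = 3.55e-05). By their means, *Sp5* was lowest in periotic tissue, where *Axin2* was highest. Of the 6 target genes listed, 3 were higher in OV than in periotic tissue. Against embryo-minus-otic tissue 2 were higher and 1 lower. The lower one, *T*, was above background only in embryo-minus-otic tissue (OV difference -0.89, *q* = 1.18e-05, at least 1.48-fold). *Tnfrsf19* was called only against periotic tissue (0.41, *q* = 0.0176), a call lost in 5 of 17 alternative analyses. *Myc* and *Cdx1* were above background on no OV array and called in neither OV comparison.

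In all, 10 of these genes were higher in OV than in both other tissues. They include proteins that restrain the pathway at the cell surface or outside it. *Apcdd1*, a membrane inhibitor, was at 8.99, 8.80 and 9.07 in OV, at 7.00, 7.21 and 6.83 in periotic tissue and at 7.70, 7.38 and 7.81 in embryo-minus-otic tissue, a fold Δ of 3.83 (difference 1.94, *q* = 2.29e-08) and 2.51 (difference 1.33, *q* = 1.95e-06). *Kremen1*, a receptor for Dkk proteins, differed by 0.94 from periotic tissue (*q* = 1.98e-05) and by 1.05 from embryo-minus-otic tissue (*q* = 6.17e-06), and *Notum*, which removes the lipid of Wnt proteins, by 0.85 (*q* = 0.000112) and 0.68 (*q* = 0.000996). *Kremen2*, the paralog of *Kremen1*, went the other way, above background on no OV array and lower in OV than in embryo-minus-otic tissue (difference -0.64, *q* = 0.000325, at least 1.4-fold). *Apcdd1*, *Kremen1* and *Notum* had the opposite direction from *Sfrp1* and *Sfrp2* against periotic tissue. The inhibitor *Sostdc1*, given below, had the same direction as the Sfrp genes (OV minus periotic difference -1.81).

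The R-spondin receptor *Lgr5* passed background on the 3 arrays of OV and on 1 array of either non-otic tissue. It differed by 0.77 from periotic tissue (*q* = 0.000167) and 0.87 from embryo-minus-otic tissue (*q* = 5.18e-05). *Ccnd1*, encoding cyclin D1, was at 12.95, 13.20 and 13.24 in OV, above all non-otic arrays, with a fold Δ of 1.76 (difference 0.81, *q* = 5.65e-05) and 2.15 (difference 1.10, *q* = 2.31e-06). *Ror1*, *Dact2*, *Ctnnbip1* and *Tle2* completed the 10, and each of these 4 lost at least 1 of its calls under at least 1 alternative analysis, while the other 6 kept both under all 17. The 3 genes lower in OV than in both were *Sostdc1*, *Tle1* and *Fat4*, of which *Sostdc1*, an inhibitor at the co-receptors, was 3.50-fold lower than in periotic tissue (difference -1.81, *q* = 6.08e-07) and 2.23-fold lower than in embryo-minus-otic tissue (difference -1.16, *q* = 7.77e-05). *Sostdc1* kept both calls under all alternatives. *Tle1* lost both after median normalization (*q* = 0.156 and 0.186). The *Fat4* difference from embryo-minus-otic tissue (-0.35, *q* = 0.0418) was lost in 8 of 17, among them those without OV replicate 1 or 2, periotic replicate 1 or embryo-minus-otic replicate 2 or 3, with *q* from 0.0566 to 0.159. Of the 9 further polarity genes on the array, 6 were above background on every array of at least 1 tissue. *Invs*, *Daam2* and *Rhoa* were above background on no array. None of the 9 was higher in OV in limma's test, nor at an unadjusted p under 0.05 or after neqc. Receptors such as *Ror1* and *Ptk7* were listed apart from these 9, so the zero does not cover them. *Ptk7* was higher in OV than in periotic tissue (difference 0.43, *q* = 0.0216), a call lost in 7 of 17 alternative analyses. *Daam1*, *Ankrd6* and *Fat4* were lower in OV than in periotic tissue.

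**Figure D4:**
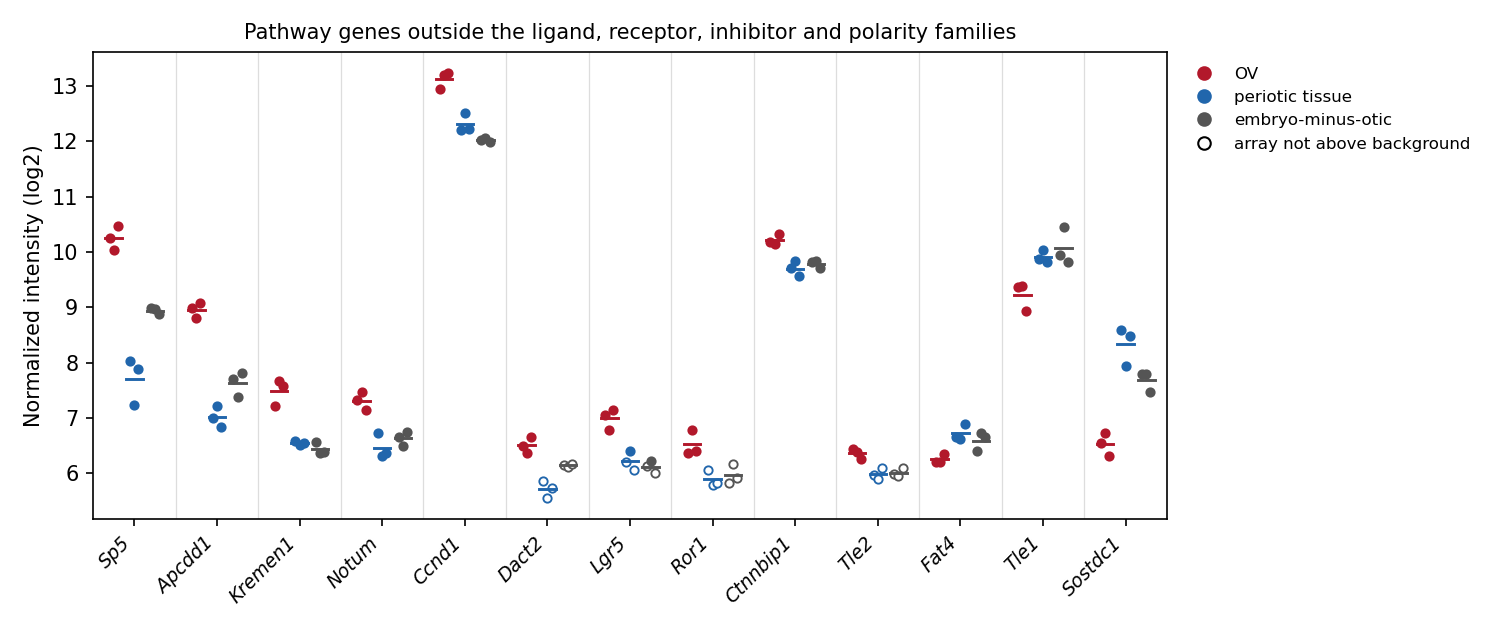
Normalized log2 intensity (vertical axis) per array of the 13 further pathway genes called in the same direction in OV against both other tissues, ordered by their difference from periotic tissue, with bars for the mean of 3 arrays and open points for arrays not above background. The 10 genes to the left are higher in OV, led by *Sp5* and *Apcdd1*, and the 3 to the right are lower, with *Sostdc1* at 6.31 to 6.73 in OV.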

How the data were processed

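RNA from 9 pools of dissected E10.5 tissue was labelled with biotin and hybridized to 9 arrays, 3 per group, and groups were taken from the tissue in the labels. The authors deposited the average signal per probe, an intensity that was not normalized between arrays, and a detection p-value per probe and array, both exported from GenomeStudio, whose version is not given in the sources used here. Whether the pools of one number share a litter is not stated, so p-values measure the spread between these pools.

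Intensities were taken to log2 and brought to common quantiles, the transformations named in the methods of the study, but over these 9 arrays alone. The study also normalized them together with arrays of neonatal cochlear cells, which were not used here, so levels can differ from its own. One linear model of the 3 groups with an empirical Bayes prior was fitted to all 25697 probes (limma 3.58.1, R 4.3.3), and p-values were adjusted over all probes by Benjamini-Hochberg for each comparison. The steps were tested on simulated data. Members, gene lists and tests were chosen with earlier results of these data known. Genes named with their values were the up to 10 with the largest difference among those called in each comparison and direction, with *Axin2*, *Lef1*, *Tcf7*, *Ctnnb1*, *Lrp5*, *Lrp6* and *Dkk1* in any case and others where they complete a family. Lists covered 71 further pathway genes and markers of otic epithelium, hindbrain and neural tube, mesenchyme, limb and posterior body, forebrain and midbrain, blood, heart muscle, liver and otic neuroblasts. All 54 symbols were found in a RefSeq gene table (GRCm38.p6), from which promoters also came.

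The highest correlation of log2 signal between 2 arrays was 0.995, and no array was counted as a duplicate. Precision is limited by the 3 arrays per group. Normalization was varied (none, median, or neqc with an offset of 16), as were the probes and groups fitted, the replicate block, the prior and the array weights. Each array was also left out, genes were counted by 1 probe, and a detection p of 0.05 was tried.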

Additional observations from a re-analysis of the deposited data

How the results depend on the processing

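Over 99 differences of the 33 genes chosen by the rule for named genes, 61 of them called, 17 alternatives gave 1680 values that could be compared, of which 1577 stayed on their side of the threshold, 94 lost the call, and 9 gained one, and 36 of the called differences held under all alternatives. None of the 61 changed sign. The same alternatives were run, after the data were seen, on the other 21 member genes and the 64 further pathway genes, where 27 of 51 called differences held under all alternatives and none changed sign. Counts of calls depended on the normalization. Probes higher in OV than in periotic tissue numbered 11, with 6 after median normalization and 5 without normalization, and 7 to 11 with each array left out, the lowest without periotic replicate 1. Probes higher in OV than in embryo-minus-otic tissue numbered 6, with 2 without normalization, and 3 to 6 with each array left out, the lowest without OV replicate 3. Probes lower in periotic than in embryo-minus-otic tissue numbered 11, with 4 after median normalization and 4 without normalization. The cause was not tested. Shares over all probes are not given for any alternative, the replicate block included, so these counts have no such share beside them. Among the 33 genes, the calls lost most often were those of *Rspo3* in OV against periotic tissue, *Tcf7* in OV against embryo-minus-otic tissue and *Wnt7b* in periotic against embryo-minus-otic tissue, each in 9 of 17 alternatives, and those of *Fzd1* and *Fzd2* in OV against periotic tissue, each in 8.

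Same-numbered pools correlated at 0.008 to 0.182 in their deviations from the group means, with 5 of 9 pairs over 0.1, and all 9 arrays correlated best with an array of their own number, a hint from the data and not from the design. With the replicate block, 12 member probes were higher and 18 lower in OV than in periotic tissue, 7 higher and 21 lower in OV than in embryo-minus-otic tissue, and 15 higher and 11 lower in periotic than in embryo-minus-otic tissue. With this block the differences of *Lrp6* (0.37, *q* = 0.0215) and *Wnt1* (-0.33, *q* = 0.0444) in OV against embryo-minus-otic tissue passed the threshold, which they missed without it. Signal over background limits the dim ligands, for which only bounds on the fold could be given.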
